A study of Arabidopsis thaliana with 24 samples.

Results

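Some transcripts of developing Arabidopsis seeds stand higher at one stage than at both the stage before it and the stage after it. The transcripts described here did so at seeds stage 8. They are the probe sets (groups of short array probes that read one transcript, or several alike) whose mean at seeds stage 8 stood at least 1 log2 unit, which is 2-fold, above the means of both seeds stage 7 and seeds stage 9. Levels are log2(signal + 7), where the signal is the intensity deposited for a probe set on an array, and the offset of 7 shrinks differences between dim signals. Of 22746 probe sets without the array's controls 91 met this rule, 5 of them are not described here, and 86 remain. The members were chosen by the measured values of stages 7, 8 and 9, so those values are given as a description with no test.

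The series followed Arabidopsis thaliana of the Col-0 background on Affymetrix ATH1 arrays, 24 in all, in 8 groups of 3. Whole siliques, the pods of this plant, were taken with the seeds inside them at stages 3, 4 and 5, and seeds freed from their siliques at stages 6, 7, 8, 9 and 10. The labels name no treatment, allele or transgene in any group, and growth conditions (long days, soil) are labelled for stage 3 only. The stages carry numbers without days, and the labels do not say whether the arrays within a group stem from different plants, so p-values reflect only how these arrays vary, which may be technical variation. In RNA from whole organs, fewer cells of a type and less RNA per cell cannot be told apart.

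As background, seeds of this plant pass from growth of the embryo to maturation, when storage protein and oil are laid down, chlorophyll is lost and the tissue prepares to dry. Inside a green, closed silique the oxygen around a seed is low, and plants answer low oxygen with a small set of genes switched on by group VII ethylene response factors. Plants also hold genes whose transcripts appear soon after touch, wounding or contact with microbial elicitors, among them calcium sensors and transcription factors. In the flower and young fruit, secreted peptides such as thionins and defensin-like proteins are made in floral organs and in the tissue through which pollen tubes grow.

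The 86 members fell into 2 main classes by the group in which each had its highest mean. In 43 of them that group was a silique stage, namely stage 3 for 25, stage 4 for 12 and stage 5 for 6. In 37 it was seeds stage 8 itself. The 6 others were highest at seeds stage 10. The array's annotation gives exactly 1 gene for 40 members, 19 of the silique class, 19 of the stage 8 class and 2 of those highest at stage 10, and all 40 are named below. The 46 others carry several genes (5) or none (41). The members thus hold transcripts that were highest in young fruit and stood higher at seeds stage 8 than at its neighbours, and transcripts for which that seed stage is the high point of the series. The lower values at stages 7 and 9 are those of the rule, which does not ask that they be dim. In the stage 8 class mean signals ran from 2.65 to 485 at stage 7 and from 5.70 to 599 at stage 9. At stages 6 and 10 not all members stood well below stage 8. In the silique class only 21 of 43 stood at least 1 log2 unit higher at stage 8 than at stage 6. At least 1 higher than at stage 10 were 26 of 43. In the stage 8 class these counts were 25 and 10 of 37. Since the rule favours a high stage 8, these counts are a description, with no shares over all probe sets beside them.

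**Figure D1:**
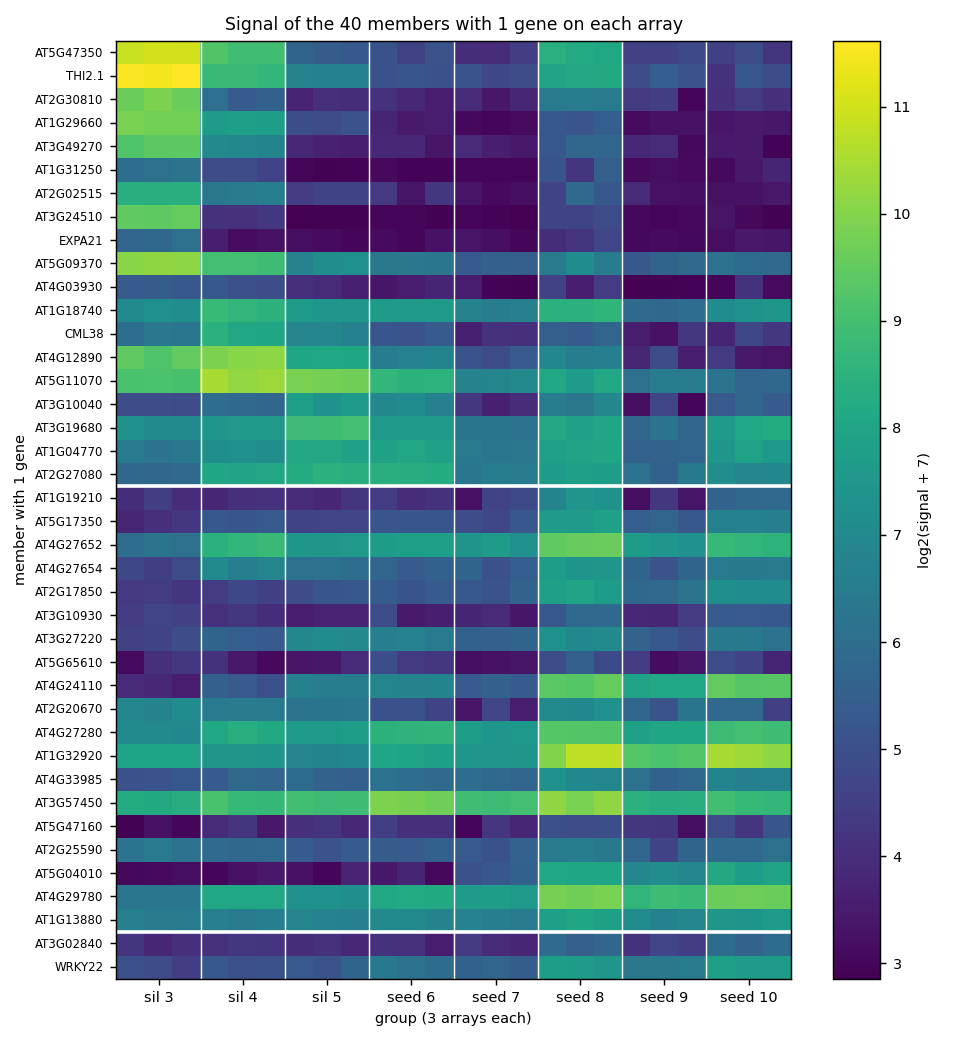
Colour gives log2(signal + 7) of the 40 members with 1 gene, 1 row each, on the 24 arrays, with 3 columns for each group and the groups in order of stage. White lines divide the rows into 19 members highest in siliques, 19 highest at seeds stage 8 and 2 highest at seeds stage 10, and the 3 columns of seeds stage 8 are brighter than those of stages 7 and 9 in every row.

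The arrays of the series also differ in ways that are not about single genes. The 25S ribosomal RNA control read over 1000 on 6 seed arrays, including 2 of the 3 at seeds stage 8 (4717 on A and 4242 on C), 1 at stage 6, 1 at stage 7 and 2 at stage 10, against 109 to 111 at stage 9 and at most 127 in siliques. On array B of stage 8 it read 119. The 3' to 5' ratio of a control transcript grows as RNA is broken or labelled only in part. For GAPDH it was 1.99 to 2.31 at stage 7, 4.24 to 4.92 at stage 8 and 3.37 to 4.05 at stage 9. For ubiquitin it was 1.88 to 2.29, 2.69 to 3.38 and 2.54 to 2.88 at these stages, and for actin 8.01 to 11.9, 6.91 to 7.33 and 4.40 to 5.94, so the actin ratio was lower at stage 8 than at stage 7. Without the 6 arrays of bright 25S control, a choice made after the data were seen, the rule found 160 probe sets, 76 of them among the 86, from 1 array of stage 8 and 2 of stage 7. The part of these ratios in the results was not tested.

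All 86 members had their 3 stage 8 arrays above all 6 arrays of stages 7 and 9, as 5.74% of the 16940 tested probe sets did, and the rule itself favours this. Over the 86 the median difference was 1.81 log2 units for stage 8 minus stage 7 and -1.66 for stage 9 minus stage 8. In the fit over all tested probe sets 8.06% were called higher at stage 8 than at stage 7, and 2.61% lower at stage 9 than at stage 8. At the threshold the values run on without a gap. Just inside it, counting the smaller of both differences, were AT1G13880 and 4 probe sets without a gene (245777_at, 254075_at, 264138_at and 261081_at), at 1.01 to 1.03. Just outside were IQD26, AT5G19110 and the probe sets 256356_s_at, 247333_at and 262921_at, at 0.977 to 0.999.

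The same measure was then read in arrays that the choice did not use. When the arrays of letter A were left out of stages 7, 8 and 9, the other arrays chose 98 probe sets, and 61 of them (62.2%) stood at least 1 log2 unit higher in the left-out stage 8 array than in both left-out neighbours, against 1.04% of all probe sets. With letter B left out 62 of 101 did so (61.4%, against 0.945%), and with letter C left out 67 of 110 (60.9%, against 0.695%). The median difference in the left-out arrays was 1.35, 1.24 and 1.12 log2 units. At full size the left-out arrays showed the stage 8 peak in about 6 of every 10 chosen probe sets. At any size above 0 they did so in 85 of 98, 88 of 101 and 93 of 110. Of all probe sets 27.6%, 26.5% and 23.6% stood above both. Since the arrays of a group may be technical repeats, these counts describe how well arrays agree and do not show that the peak recurs in other plants.

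Among the members highest in siliques, 3 encode small secreted peptides. THI2.1 (AT1G72260), a thionin, which is a cysteine-rich peptide that damages microbial membranes, had signals of 244, 279 and 283 on arrays A, B and C of seeds stage 8. It stood at 28.4, 19.5 and 22.4 at stage 7, 23.6, 37.2 and 27.1 at stage 9 and 10.7, 30.2 and 23.8 at stage 10, with no overlap between stage 8 and these. In whole siliques it read 3026, 2788 and 3134 at stage 3, so that stage 8 reached 9.01% of that mean, and it stood at 426 ± 22.2 (SD, n = 3) at stage 4 and 99.2 ± 2.56 at stage 5. The stage 8 level thus lay between those of siliques at stages 4 and 5. AT2G30810, of the GASA family of peptides whose members often answer gibberellin, read 79.9, 87.1 and 83.6 at seeds stage 8, 7.91, 3.59 and 6.9 at stage 7 and 13.3, 14.8 and 1 at stage 9. Its siliques stage 3 arrays read 790.3, 946 and 785. AT3G24510, a defensin-like peptide, was close to 0 in all seed groups but stage 8, at 0.819, 0.759 and 0.338 at stage 7, 18.2, 17.4 and 22 at stage 8 and 1.19, 1.03 and 1.23 at stage 9. It reached only 2.68% of its siliques stage 3 mean of 716 ± 29.1.

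A further 4 members of the silique class encode proteins of the cell wall or of lipid handling, all highest at siliques stage 3. AT1G29660, a lipase of the GDSL type, read 31.9, 28.7 and 37.4 at seeds stage 8, 1.23, 0.924 and 1.74 at stage 7 and 1.64, 2.69 and 2.42 at stage 9, against 871 ± 44.7 in siliques stage 3. AT5G09370, of the lipid transfer protein superfamily, stood at 78.6, 131 and 87.7 at stage 8, at 37.9 ± 1.99 at stage 7 and at 42.6 ± 10.1 at stage 9. Here array B lay above arrays A and C, and the stage 6 arrays (73.9, 74 and 72.2) were near array A. EXPA21 (AT5G39260), an alpha expansin, a protein that loosens walls, was dim throughout the seed stages, with 9.11, 11.4 and 18.9 at stage 8 and at most 3.18 as the mean of any other seed group. AT4G03930, a pectin methylesterase, which alters wall pectin, read 17.2, 4.93 and 14 at stage 8. Its array B lay close to the highest stage 7 array, which read 4.49, so that this peak rests mostly on arrays A and C.

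Of the enzymes, AT5G47350, of the alpha/beta hydrolase superfamily, had the largest difference from stage 7 among the 40 members with 1 gene, 4.11 log2 units. Its seeds stage 8 arrays read 334, 291 and 268, while those of stage 7 read 8.92, 8.52 and 14.8 and those of stage 9 17, 16.2 and 20.9. Stage 6 stood at 26, 16.3 and 27.6 and stage 10 at 16, 23.6 and 11.5, so that in seeds the transcript was high in the stage 8 group alone. In siliques it went from 1874, 2106 and 2086 at stage 3 through 596, 483 and 477 at stage 4 to 43.8, 36.8 and 32 at stage 5. AT4G12890, a thiol reductase of the GILT family, read 117, 85.6 and 91.7 at seeds stage 8, 27.9, 22 and 34.7 at stage 7 and 6.89, 21.7 and 5.04 at stage 9. Its stage 6 arrays (88, 99.6 and 104) overlapped those of stage 8, and by stage 10 the mean was 6.74 ± 5.72. For this gene stage 8 interrupts a decline that runs from siliques stage 4 (1033 ± 78.4) to seeds stage 10.

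Another 4 members of the silique class, highest at silique stages 4 or 5, encode regulators and response proteins. AT3G10040 (HRA1), a trihelix transcription factor that restrains the low-oxygen response, read 217, 157 and 181 in siliques stage 5, 112, 127 and 95.9 in seeds stage 6, 12, 5.34 and 8.73 in stage 7, 87.7, 73.3 and 114 in stage 8 and 2.11, 18.9 and 1.14 in stage 9. Stages 6 and 8 overlapped, and stages 7 and 9 both lay far below them. CML38 (AT1G76650), a calmodulin-like calcium sensor induced by low oxygen and wounding, stood at 38.7, 35.7 and 45.4 in stage 8, at 8.66 ± 2.8 in stage 7 and at 6.45 ± 4.73 in stage 9, against 291 ± 47.1 in siliques stage 4. AT1G04770 (SDI2), a protein induced by sulfur shortage, read 227, 241 and 256 in stage 8, overlapping stage 6 (229, 264 and 227), and 76.6 ± 7.03 and 43.5 ± 1.59 in stages 7 and 9. AT2G27080, of the NHL family of membrane proteins, read 328, 312 and 296 in stage 6 and 194, 217 and 209 in stage 8, which was lower than stage 6 on all 3 arrays.

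For 6 members of the silique class no role is given here. AT3G49270, AT2G02515 and AT1G31250 had their highest means at siliques stage 3, at 643 ± 56.1, 322 ± 4.39 and 62.6 ± 5.19, and read 41.6 ± 9.11, 33.2 ± 16.7 and 26 ± 13.9 at seeds stage 8. The arrays of stage 8 were uneven for AT1G31250 (27.8, 11.3 and 38.9) and AT2G02515 (18, 51.1 and 30.4), with array B lowest in the first and array A lowest in the second. AT5G11070 and AT1G18740 were highest at siliques stage 4, and AT3G19680 at siliques stage 5. AT1G18740 read 346, 341 and 376 at seeds stage 8, 91.5% of its siliques stage 4 mean, with 95.4 ± 7.33 at stage 7 and 52.2 ± 3.68 at stage 9. AT5G11070 read 265, 199 and 269 at stage 8 but 368 ± 23.1 at stage 6. AT3G19680 read 273, 228 and 258 at stage 8 and 198, 262 and 293 at stage 10, which overlap.

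Over the 43 members of the silique class, the seeds stage 8 mean signal was between 1.42% and 96.1% of the highest silique mean, with a median of 14.7%. It was under 20% in 23 of the 43 and at least 50% in 10. Those highest at siliques stage 3 had a median of 9.31%, those highest at stage 4 one of 26.9%, and those highest at stage 5 one of 51.4%. Seeds stage 8 also stood above seeds stage 6 in 38 of the 43. The rule chose the members for a high stage 8, so this count is a description, with no share over all probe sets beside it.

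The summed level of the silique wall list at stage 8 overlapped that at its neighbours. The summed signal of the 12 silique wall and fruit probe sets was 5245 to 8786 on the silique arrays, 430 to 466 at seeds stage 6, 385 to 428 at stage 7, 366 to 408 at stage 8, and 357 to 439 at stage 9. In seeds much of this sum came from SPT and YAB3, which were not confined to siliques. SPT had means of 125 in siliques stage 5 and 172, 76.9 and 77.1 at seeds stages 7, 8 and 9. YAB3 had 59.3 in siliques stage 5 and 102, 154 and 149 at those seed stages. The sum is therefore no clean measure of wall RNA in seeds. ECS1, a gene of that list, averaged 1558 in siliques stage 5 and 6.45 at seeds stage 8. The peak was found in a minority of the transcripts of young siliques. Of 221 probe sets at least 16-fold brighter in siliques stage 3 than in seeds stages 7 and 9, 19 are members (8.60%), 21 stood at least 1 log2 unit above both at stage 8 (9.50%, against 0.4% of all probe sets), and the median difference of stage 8 from the higher of stages 7 and 9 was -0.01 log2 units. For siliques stage 4 the counts were 9 members and 11 at least 1 above both of 62 (17.7%), and for siliques stage 5 they were 0 and 1 of 34 (2.94%). The choice of these probe sets used stages 7 and 9, and no test was made.

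**Figure D2:**
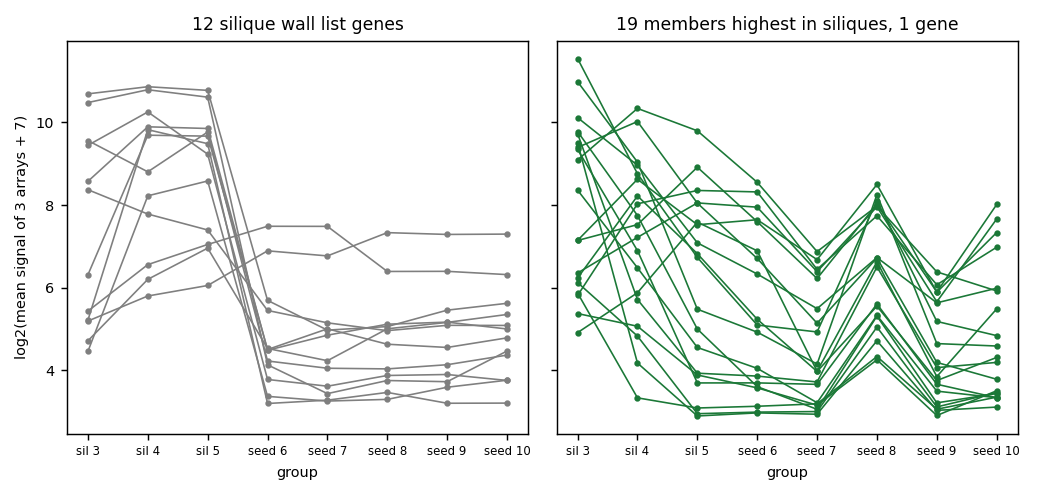
Each line is 1 probe set, drawn through log2 of its mean signal over 3 arrays plus 7 in the 8 groups in order of stage, for 12 silique wall list genes on the left and 19 members of the silique class with 1 gene on the right. The wall genes drop from siliques stage 5 to seeds stage 6 in most cases and show no common high point at seeds stage 8, where every line on the right has one.

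The stage 8 class was led by AT1G19210 (ERF017), a transcription factor of the AP2/ERF family, which had the largest excess over stage 9 among the members with 1 gene in that class. It read 106, 171 and 158 at seeds stage 8. The 3 arrays of stage 7 read 2.5, 17.9 and 20.6, those of stage 9 2.11, 11.9 and 3.1 and those of stage 10 43.5, 49.2 and 51.3. In the 4 earlier groups its mean was between 8.83 and 11.1. The transcript was thus low until stage 8, high there, and at an intermediate level at stage 10 after a low stage 9.

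Response genes to low oxygen and calcium made up 4 of the 19 named members of this class. AT4G24110, of the core set that low oxygen induces across plant organs, stood at 110.4, 103 and 104 at stage 6, 34.4, 40.4 and 35 at stage 7, 662, 625 and 739 at stage 8, 233, 268 and 263 at stage 9 and 725, 632 and 646 at stage 10. Stages 8 and 10 overlapped, with all 3 arrays of stage 9 between stage 7 and stage 8. AT2G17850, a rhodanese-like protein of the same core set, read 31.1, 27.6 and 43 at stage 7, 219, 247 and 195 at stage 8, 49.7, 51.2 and 67.3 at stage 9 and 142, 129 and 127 at stage 10. AT3G27220, a kelch repeat protein, read 41, 39.3 and 44.1 at stage 7, 153, 116 and 124 at stage 8 and 42.8, 31.4 and 23.2 at stage 9. Its arrays of siliques stage 5 (115, 128 and 118) overlapped stage 8, and those of seeds stage 6 (90.6, 101 and 81.8) lay just below it. AT4G27280, a calcium-binding protein with EF hands, had 620.4, 605 and 596 at stage 8, 184 ± 20.1 at stage 7 and 248 ± 17 at stage 9.

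The peptide gene of this class was AT3G10930 (IDL7), of the family of IDA-like signal peptides. It read 30.3, 51.2 and 50.6 at stage 8, at most 7.79 at stage 7, at most 13.6 at stage 9 and 33.8, 32.4 and 31.3 at stage 10, where the arrays lay within the range of stage 8. AT5G04010, an F-box protein, of a family that marks other proteins for breakdown, was near 0 in siliques and at stage 6 (3.75, 6.61 and 1.19). It stood at 25.8, 30.7 and 40.8 at stage 7, 269.6, 255 and 253 at stage 8, 113, 138 and 115 at stage 9 and 277, 212 and 246 at stage 10. The peak at stage 8 was in this case the first of 2 high groups, and stage 9 lay well above stage 7.

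The 3 proteins with chromatin-type domains had small peaks. AT1G13880, with an ELM2 domain, read 99.9, 90.7 and 82.7 at stage 7, 218, 258 and 222 at stage 8 and 128, 96.8 and 113 at stage 9. AT2G25590, with Tudor-like domains, stood at 80.6, 87.3 and 74.9 at stage 8 and overlapped siliques stage 3 (66.4, 81.6 and 65.1). AT5G47160, with a YDG/SRA domain, which in other proteins binds methylated DNA, was dim, at 24.6, 23.7 and 24.4 at stage 8, and its stage 10 arrays (22.2, 10.9 and 29.8) spread around that level.

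For the 9 other named members of the stage 8 class no role is given here. AT4G27652 and AT4G27654, which are next to each other in the RefSeq order of genes, ran in parallel. AT4G27652 read 162, 198 and 146 at stage 7, 703, 764 and 781 at stage 8, 202, 171 and 148 at stage 9 and 416, 385 and 362 at stage 10. AT4G27654 read 44.4, 25.7 and 37.4 at stage 7, 207, 160.1 and 173 at stage 8, 44.7, 27.6 and 43.8 at stage 9 and 78.8, 77.5 and 81.9 at stage 10. Both also had a higher mean at siliques stage 4, 393 ± 48 and 106 ± 15.9, than at siliques stages 3 and 5. AT4G29780 varied little between arrays of a group, with 197, 206 and 184 at stage 7, 903, 843 and 915 at stage 8, 383, 465 and 432 at stage 9 and 774, 808 and 796 at stage 10. AT5G17350 read 196, 198 and 226 at stage 8 against a mean of at most 38.1 in the other groups before stage 10, and 94.9 ± 3.85 at stage 10. AT1G32920 was less even at stage 8 (978, 1761 and 1709.9), with array A lowest yet above all stage 9 arrays (629, 559 and 609.7).

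AT2G20670 read 123, 116 and 148 at stage 8, which overlapped siliques stage 3 (109, 102 and 129), after 3.05, 18.6 and 4.55 at stage 7. AT3G57450 had 1137, 915 and 1134 at stage 8 and 945, 897 and 814 at stage 6, groups that overlap, with lower values of 485 ± 25.6 and 326 ± 16.8 at stages 7 and 9. AT4G33985 stood at 127 ± 23.6 at stage 8, 51.7 ± 6.48 at stage 7 and 51.3 ± 11.8 at stage 9. AT5G65610 was dim, at 23.5, 39.3 and 21 at stage 8, and 1 of its stage 6 arrays (24.4, 13.2 and 12.1) lay within that range.

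The 2 named members that were highest at seeds stage 10 have known links to defence. WRKY22 (AT4G01250), a transcription factor of flagellin signalling, read 40.9, 45.4 and 36.9 at stage 7, 206, 200.3 and 171 at stage 8, 73.3, 75.4 and 79.4 at stage 9 and 222, 196 and 193 at stage 10. AT3G02840, of a family of immediate-early genes answering fungal elicitor, read 13.3, 8.12 and 6.96 at stage 7, 53.8, 38.2 and 46.8 at stage 8, 10.4, 18.6 and 14.7 at stage 9 and 55.2, 43.4 and 54.7 at stage 10. In both the arrays of stages 8 and 10 overlapped, and stage 9 lay below both groups.

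**Figure D3:**
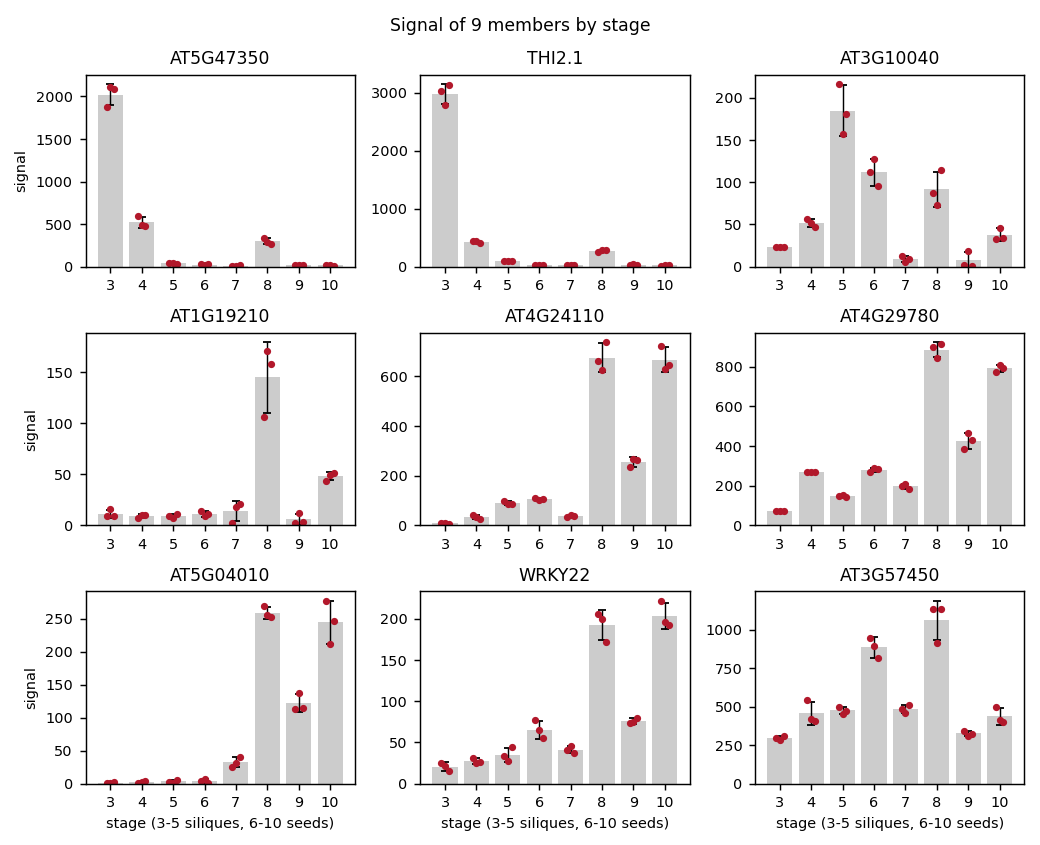
Bars give the mean deposited signal of 9 members in each group on a linear axis from 0, error bars the SD of 3 arrays and points the arrays, with siliques at stages 3 to 5 and seeds at stages 6 to 10. AT5G47350 and THI2.1 have a small second peak at stage 8 after their high siliques stage 3, AT1G19210 is highest at stage 8, and AT4G24110, AT4G29780, AT5G04010 and WRKY22 are high at stages 8 and 10 with a lower stage 9.

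The 46 members without a single gene followed the same division, 24 in the silique class, 18 in the stage 8 class and 4 highest at stage 10. The smaller of their differences from stages 7 and 9 was 1.03 to 3.41 log2 units in the silique class, 1.01 to 3.11 in the stage 8 class and 1.04 to 1.75 in the last. The largest belonged to the probe set 251673_at, highest at siliques stage 4, with 16.6, 12.2 and 7.04 at seeds stage 7, 206, 163 and 205 at stage 8 and 0.838, 12.5 and 1.31 at stage 9. In the stage 8 class it was 254120_at, with 28.5, 49.4 and 31.7 at stage 7, 505, 488 and 572 at stage 8 and 44.5, 61 and 58.8 at stage 9. These were named after their values were seen.

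A return at seeds stage 10 was common in the stage 8 class. In 35 of its 37 members the mean at stage 10 stood above that at stage 9, in 16 by at least 1 log2 unit. Over all 86 members 31 did so by at least 1, against 0.791% of all tested probe sets, and 74 by any amount, against 54.1%. Stage 9 was below stage 8 by the rule, so these counts are a description. On the arrays, the median level of the stage 8 class was 7.82 to 8.00 log2 units at stage 8, 6.09 to 6.25 at stage 9 and 7.07 to 7.18 at stage 10. In the silique class 33 of 43 stood above stage 9 at stage 10, 9 by at least 1, and its medians were 6.03 to 6.13 at stage 8, 4.23 to 4.44 at stage 9 and 4.24 to 4.75 at stage 10, the last pair overlapping.

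**Figure D4:**
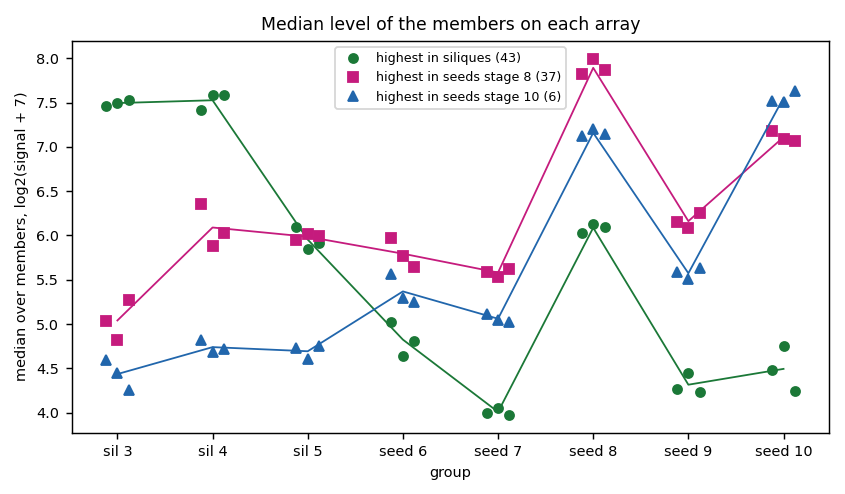
Points give, for each of 24 arrays, the median log2(signal + 7) over the 43 members highest in siliques, the 37 highest at seeds stage 8 and the 6 highest at seeds stage 10, and lines join the group means. All 3 classes peak at seeds stage 8 beside stages 7 and 9, and the classes highest at stages 8 and 10 are high again at seeds stage 10.

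Comparisons between groups that the rule did not use can be tested. The model was limma, with 1 mean for each of the 8 groups, fitted to all 16940 probe sets that passed a filter on low signals, which all 86 members passed. Calls needed an adjusted p under 0.05 (Benjamini-Hochberg, over all 16940) together with a change of at least 2-fold. Only called members are said below to have risen or fallen. The classes were set from the highest group, so counts by class are descriptions.

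Between seeds stages 6 and 10, the first and last seed groups, a larger share of the members than of all tested probe sets was called higher. At stage 10, 24 of the 86 (27.9%) were higher, against 14.1% of all tested probe sets, and 11 (12.8%) were lower, against 19.7%. The median change over the members was 0.42 log2 units, against 0.02 over all tested. By class, 17 of 37 in the stage 8 class rose and 1 fell, while 2 of 43 in the silique class rose and 10 fell, and 5 of 6 highest at stage 10 rose. Leaving out the arrays of bright 25S control keeps only array B of stage 10, so counts of calls are not given for that setting.

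Of the members with 1 gene, 10 rose from seeds stage 6 to stage 10 and 5 fell. The F-box gene AT5G04010 rose by 4.56 ± 0.19 (SE) on the log2 scale (limma adjusted p = 9.77e-17). The low-oxygen genes AT4G24110 and AT2G17850 rose by 2.58 ± 0.12 (SE) and 1.82 ± 0.15 (SE). Increases of 2.39, 1.48 and 1.48 were found for AT1G32920, AT5G17350 and AT4G29780. The defence-linked genes AT3G02840 and WRKY22 rose by 1.92 ± 0.20 (SE) and 1.55 ± 0.15 (SE). AT1G19210 rose by 1.63 ± 0.31 (SE) and AT3G10930 by 1.31 ± 0.27 (SE), and both were no longer called with an offset of 28, at 0.97 and 0.68. In each of these 10 genes all 3 arrays of stage 10 lay above all 3 of stage 6.

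The thiol reductase AT4G12890 fell by 3.0 ± 0.24 (SE) on the log2 scale and AT5G11070 by 2.65 ± 0.12 (SE), the latter with a limma adjusted p of 6.41e-16. The low-oxygen regulator AT3G10040 and the NHL gene AT2G27080 fell by 1.41 ± 0.28 (SE) and 1.34 ± 0.13 (SE). AT3G57450 fell by 1.01 ± 0.10 (SE), close to the 2-fold limit. Its call was lost when array B or D of stage 10 or array A of stage 6 was left out, at -0.98, -0.95 and -0.96, with an offset of 28 (-0.98), with arrays centred on the 75th percentile (-0.90) and with the letters as a block (-0.94). THI2.1, AT5G47350 and the other peptide and wall genes of the silique class did not pass, with differences of -0.32 for THI2.1 and -0.35 for AT5G47350.

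Within whole siliques the members moved both ways. From stage 3 to stage 5, 29 of 86 (33.7%) fell, against 10.9% of all tested probe sets, and 17 (19.8%) rose, against 10.4%. The silique class gave 26 of the decreases and 8 of the increases, and the stage 8 class 2 and 9. The median change was -2.39 log2 units in the silique class and 0.46 in the stage 8 class, against -0.03 over all tested probe sets.

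The steepest decrease with a named gene was that of the defensin-like gene AT3G24510, which fell by 6.61 ± 0.16 (SE) on the log2 scale (limma adjusted p = 1.47e-21). AT2G30810 fell by 5.80 ± 0.27 (SE), AT3G49270 by 5.65 ± 0.22 (SE), AT5G47350 by 5.52 ± 0.17 (SE) and THI2.1 by 4.81 ± 0.17 (SE). The 4 wall and lipid genes fell as well, AT1G29660 by 4.78, AT5G09370 by 3.05, EXPA21 by 2.78 and AT4G03930 by 1.5, the last not called with an offset of 28 (-0.80). AT2G02515, AT1G31250 and AT4G12890 fell by 3.82, 3.17 and 1.34. AT1G32920 of the stage 8 class fell by 1.05 ± 0.13 (SE) and was not called with an offset of 28 (-0.94).

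Of the 5 members in the low-oxygen core set, 3 rose in siliques. AT4G24110 rose by 2.81 ± 0.12 (SE) from stage 3 to stage 5 (limma adjusted p = 2.63e-16), AT3G10040 by 2.66 ± 0.28 (SE) and AT3G27220 by 2.28 ± 0.15 (SE). AT2G17850 and CML38, with changes of 0.83 and 0.59, did not reach 2-fold. AT2G27080 rose by 2.54, AT3G19680 by 1.78 and AT1G04770 by 1.70. The neighbouring genes AT4G27652 and AT4G27654 rose by 1.42 and 1.38, the second not called with an offset of 28 (0.92). The letters of the arrays differ between siliques stage 3 (A, B, C) and stage 5 (D, E, F), so a batch tied to the letters cannot be told apart from the stage.

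**Figure D5:**
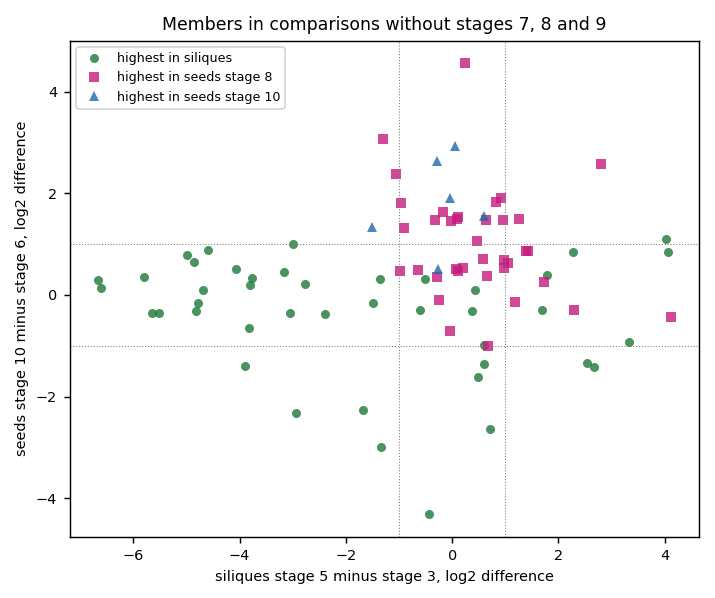
Each point is 1 of the 86 members, with the log2 difference of siliques stage 5 minus stage 3 on the horizontal axis and that of seeds stage 10 minus stage 6 on the vertical axis, coloured by class, and dotted lines mark 2-fold. Most members of the silique class lie at the left, with a median of -2.39, and most of the stage 8 class lie above 0 on the vertical axis, with a median of 0.86.

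The steps within that interval differed. At the first step the letters change too, from A, B and C at stage 3 to D, E and F at stage 4. A batch tied to the letters cannot be told apart from the stage there. From siliques stage 3 to stage 4, 27 of 86 members (31.4%) rose, against 9.4% of all tested probe sets, and 24 (27.9%) fell, against 9.43%. AT4G27652 rose by 2.54 ± 0.11 (SE) (limma adjusted p = 3.74e-16) and AT4G29780 by 1.80 ± 0.07 (SE), while AT3G24510 fell by 5.33 ± 0.16 (SE) and AT2G30810 by 4.04 ± 0.27 (SE). For AT3G24510, bright in siliques stage 3 alone, the decrease is again a description. From stage 4 to stage 5, 32 members (37.2%) fell, against 1.45%, and 8 (9.30%) rose, against 1.89%. Here the largest decrease of all 86 members was that of AT5G47350, by 3.56 ± 0.17 (SE). Rises were found for AT3G10040, by 1.70, for AT3G27220, by 1.49, for AT3G19680, by 1.39, and for AT4G24110, by 1.30. CML38 fell by 1.39 ± 0.22 (SE).

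From siliques stage 5 to seeds stage 6 the material changes with the stage, and the wall is gone. The letters change as well, from D, E and F to A, B and C, so a batch tied to them cannot be told apart either. In this comparison 18 of 86 members (20.9%) fell, against 7.56% of all tested probe sets, and 4 (4.65%) rose, against 4.07%, a share near the background. Of the 18 decreases 16 were in the silique class. With a gene to name, THI2.1 fell by 1.64 ± 0.17 (SE) (limma adjusted p = 2.23e-08), CML38 by 1.59 ± 0.22 (SE), AT4G12890 by 1.34, AT3G19680 by 1.32 and AT5G11070 by 1.25. AT1G29660 and AT2G20670 fell by 1.40 and 1.32, and AT1G32920 rose by 1.04, and none of these 3 was called with an offset of 28, at -0.67, -0.92 and 0.92.

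The low-oxygen core set holds 38 genes, and here 16 of them own a probe set and 15 were tested. Of these 15, 5 are members (AT3G10040, CML38, AT3G27220, AT4G24110 and AT2G17850). Another 2 met the rule but are among the probe sets not described here. The stage 8 counts that follow are therefore in large part fixed by the rule and are a description. At seeds stage 8, 10 of the 15 stood at least 1 log2 unit above stage 7 and 0 at least 1 below it, where 8.06% of all tested probe sets were called higher, and 11 stood above both stages 7 and 9 by any amount, against 21.5% of all tested. The median of stage 8 minus stage 7 was 1.59 over the list and -0.02 over all tested, in the contrast that chose the members. The rule played no part in comparisons outside stages 7, 8 and 9. From siliques stage 3 to stage 5, 10 of the 15 rose and 0 fell, against 10.4% and 10.9% of all tested. The median change was 2.28 log2 units. From seeds stage 6 to stage 10, 7 rose and 3 fell, against 14.1% and 19.7% of all tested, with a median of -0.10. Some genes of the set did not come down after stage 8 and are no members: PDC2, a pyruvate decarboxylase of fermentation, had means of 222, 719, 1121 and 1335 at seeds stages 7 to 10, the highest at stage 10, and AT1G19530 had 49.7, 1613, 1437 and 1721. These were picked after their values were seen, as were the other genes named here that are no members. The list was drawn up with earlier results of these data known.

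The 10 other lists have 50 tested genes. Members make up 0.508% of all tested probe sets, and 0 of the 50 is one, a share near that background, while 6 of the 50 stood above both stages 7 and 9 by any amount, against 21.5%. All 12 tested genes for late embryogenesis abundant proteins, which protect drying seeds, stood at least 1 log2 unit above stage 7 at stage 8, yet 0 stood above both neighbours. Genes of photosynthesis were lower at stage 8 than at stage 7 by at least 1 in 7 of 7 cases, of the seed coat in 4 of 6 and of the dehydration and cold response in 2 of 3 (COR47 and COR15B). Of 3 endosperm genes AT1G71250 had a stage 8 minus stage 7 difference of -1.92 log2 units, while AT4G36590 and MPC were higher by 0.89 and 0.76, and the latter pair stood above both neighbours. In the list of touch and wound response 1 gene, STZ, was tested and stood 1.53 above stage 7 and 0.40 above stage 9. Of 2 tested heat shock genes 1, ATHSP22.0, was at least 1 lower than at stage 7, and of 4 tested pollen genes 1, AT5G45880, was at least 1 higher. The list of senescence and defence had 1 gene with its own probe set and 0 tested, and in the silique wall list 1 of 12, SPT, was lower by at least 1 and 0 higher. The summed signal of the pollen list was 82.4 to 99.9 at stage 7, 177 to 239 at stage 8 and 226 to 240 at stage 9. One gene, AT5G45880, makes up most of it, with means of 53.3, 171 and 178, and the sum of the other 4 was 29.6 to 41.6, 17.2 to 63.5 and 50.3 to 60.0. AT5G07430 had means of 20.1 at stage 7 and 14.3 at stage 8. The part of pollen RNA in the results was not tested.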

How the data were processed

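The deposited values are signal intensities on a linear scale, 1 array per sample. Per the submitters' processing notes they come from MAS5, of unstated version. The authors appear to have scaled every array to a common level, since the trimmed mean (signals from percentile 2 to 98) lay close to 100.0 on each. No detection calls were used, and precision is limited by the number of arrays. Signals were used as log2(signal + 7).

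Members were chosen in Python 3.11.15 (pandas 2.3.3, numpy 2.4.6) from group means. The tests used R 4.3.3 and limma 3.58.1, fitting a mean for each group, with a trended prior in eBayes and 16 residual degrees of freedom. Probe sets above the 40th percentile of their array on at least 3 arrays were tested, 16940 in all, and called at a Benjamini-Hochberg adjusted p under 0.05 and at least 2-fold. The model was tested on simulated data. Gene names come from the array's annotation, in which 13513 probe sets have a single gene, and 38 of the 40 named members matched a RefSeq locus. All members with exactly 1 gene are named. The members and the 11 gene lists were chosen with earlier results of these data known. Alternatives were offsets of 1 and 28, quantile normalization, centring on the 75th percentile, medians for means, no filter, no variance trend, a stricter rise of 1.5, the array letter as a block, each array left out in turn and, added after the data were seen, the arrays of bright 25S control left out. Figures were drawn with matplotlib 3.10.9.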

Additional observations from a re-analysis of the deposited data

How the results depend on the processing

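The number of members depends on the offset: with log2(signal + 1) the rule found 249 probe sets, which include all 86, with 111 highest in siliques and 111 highest at seeds stage 8, and with log2(signal + 28) it found 49, all among the 86, with 23 and 24. A rise of 1.5 in place of 1 left 39. Without the 6 arrays of bright 25S control it found 160, of which 76 are among the 86, with 92 highest at stage 8 and 58 in siliques. Fewer arrays enter these means, and the cause was not tested. Quantile normalization gave 89 members (80 shared), centring on the 75th percentile 81 (79 shared) and medians of arrays 101 (75 shared). With 1 array left out at a time there were 83 to 105 members, 41 to 48 in the silique class and 33 to 51 in the stage 8 class. The counts of called members then ranged from 23 to 26 higher and 10 to 12 lower in seeds stage 10 against 6, 17 to 18 and 29 to 31 in siliques stage 5 against 3, 4 to 6 and 18 in every case in seeds stage 6 against siliques stage 5, 26 to 29 and 23 to 24 in siliques stage 4 against 3, and 8 in every case and 30 to 32 in siliques stage 5 against 4. The 4 members called higher in seeds stage 6 became 7 with an offset of 1 and 2 with one of 28, and the cause was not tested. The 44 calls of named genes in 3 comparisons were read again under each other setting. In seeds stage 10 against 6, 8 of 210 such values lost the call. In siliques stage 5 against 3 this held for 3 of 252, and in seeds stage 6 against siliques stage 5 for 3 of 104. These 14 values came from 3 genes in each comparison, and 0 values reversed. With the letter of the array as a replicate block, seeds stage 10 against 6 had 23 members higher and 10 lower, and siliques stage 5 against 4 had 8 and 32. Deviations of arrays of one letter had correlations of 0.002 and 0.009 between seeds stages 10 and 6. Between siliques stages 5 and 4 these were 0.10, 0.001 and 0.08. For arrays of different letters they ran from -0.018 to 0.021 and from -0.11 to 0.047 in the same 2 comparisons. Whether the letters stand for a batch was not tested. The other comparisons share no letters between their groups, and results with a block are not given for them.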

Other observations

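Peaks of this size were more frequent at seeds stage 8 than at its neighbours. Among 22746 probe sets, 91 had a mean at stage 8 at least 1 log2 unit above both neighbouring stages, against 54 at stage 7 and 44 at stage 9. The opposite pattern, a mean at least 1 below both neighbours, was found for 33 probe sets at stage 8, 36 at stage 7 and 60 at stage 9. The 3 counts share stages and were not tested.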
